A study of Mus musculus with 6 samples.

Results

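The cell cycle and DNA replication genes examined here are a list of 46 mouse genes for the cyclins, kinases, inhibitors, replication factors and spindle proteins of a dividing cell. They were taken by name, with earlier results of these data known. Each was read by the probe set of its symbol alone that had the highest mean over the arrays. Of the 46, 45 had such a probe set, among 18193 genes named on the array, and 37 were bright enough to be tested among 12598 genes. Cdc6, Tyms, Foxm1, Aurkb, Bub1, Ttk, Gtse1 and Cenpe were too dim for the test, and Ccnb1 is not analysed here.

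The values come from 6 Affymetrix arrays, each with liver RNA of 1 male mouse, 3 of ChLO and 3 of wild-type (WT) mice. ChLO mice were bred from mice with floxed Chrebp alleles, the gene now called Mlxipl, and an albumin-Cre transgene. The albumin promoter drives Cre in hepatocytes, so other cells of the liver need not have lost the gene. Both groups were 12 weeks old and ate a diet with 60% sucrose for 1 week. Whether the WT mice carried floxed alleles or Cre, and whether they were littermates, was not stated in the labels. ChREBP, the product of Mlxipl, is a transcription factor that responds to carbohydrate and activates genes that handle sugar and make fat.

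A resting cell enters the cycle when D-type cyclins with Cdk4 or Cdk6, and then cyclin E with Cdk2, inactivate the retinoblastoma proteins and free E2F factors. E2F turns on genes that license replication origins and make deoxynucleotides, the G1/S genes. Genes for cyclins A and B, Cdk1, the Aurora and Polo kinases and the spindle checkpoint peak later, as the G2/M genes. Most hepatocytes of an adult liver rest outside the cycle and can re-enter it after injury or loss of tissue.

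Signals are log2 values, so a difference of 1 is a doubling, and differences are ChLO minus WT. SE is the standard error from limma, a linear model that shares information on the spread over all genes tested. Mlxipl itself read 10.34, 11.22 and 11.48 in ChLO 1, 2 and 3, against 12.61, 12.56 and 12.59 in WT 1, 2 and 3. All ChLO livers lay below all WT livers, with a difference of -1.57 (SE 0.28) and a limma adjusted p of 0.185, or 0.0199 without ChLO 3. The position of its probe set relative to the floxed exons was not known here.

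The arrays had medians of 6.38 to 6.60 and correlated with each other at 0.894 to 0.954 over the genes tested. All 12 hepatocyte marker genes were tested, and albumin (Alb) read 15.31 to 15.67 in ChLO and 15.52 to 15.85 in WT. Over all genes limma called 0 (0%) at an adjusted p under 0.05 and 1129 (8.96%) at an unadjusted p under 0.05. It called 302 genes (2.40%) at an adjusted p under 0.05 when ChLO 3 was left out, and 0 to 4 when any other single array was. ChLO 3 stood apart from the other ChLO livers for many cell cycle genes. Differences are therefore also given without it where leaving it out turned their sign or moved them by over 1.5 times. Because ChLO 3 was picked out by its values, p-values without it are descriptions and not tests.

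Most cell cycle genes had higher mean signals in ChLO livers, but none passed the test over all genes, given the spread between mice. Of the 37 tested, 33 were higher in ChLO, beside 56.5% of all genes, and the median difference was 0.48, beside 0.060 for all genes. limma called 0 of the 37 at an adjusted p under 0.05. At an unadjusted p under 0.05 it called 3 higher, Cdk6, Cdkn1b and Rrm1, beside 5.46% of all genes, and 0 lower, beside 3.50%. In 3 of the 37, Cdk6, Cdkn1b and Ccnd2, all ChLO arrays lay above every WT array, beside 9.04% of all genes. For each of these 3, the groups overlapped on some other probe set past the filter. All ChLO arrays lay below every WT array in 0 of the 37, beside 6.19%. The share above every WT array was near that of the whole array. Of the 37, 2, Birc5 and Mki67, passed the filter on signal only through their ChLO mean, so they had to be higher, and 31 of the other 35 were higher. Without WT 2 the count higher was 27 of 37, beside 57.3% of all genes.

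Livers of the same genotype differed widely for these genes. ChLO 1 was the highest of the 6 arrays for 18 of the 37 genes, beside 29.5% of all genes. ChLO 3 was the lowest ChLO array for 31 of 37, beside 39.6%. WT 1 was the highest WT array for 26 of 37, beside 33.5%, among them 12 of the 14 G2/M genes. As a difference from the mean of the WT arrays, the median of the 37 genes was 0.92, 0.70 and -0.055 in ChLO 1, 2 and 3, against 0.38, -0.35 and -0.095 in WT 1, 2 and 3. The same median over all genes tested stayed between -0.016 and 0.092 in the 6 arrays. These array counts were chosen after the values were seen.

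**Figure D1:**
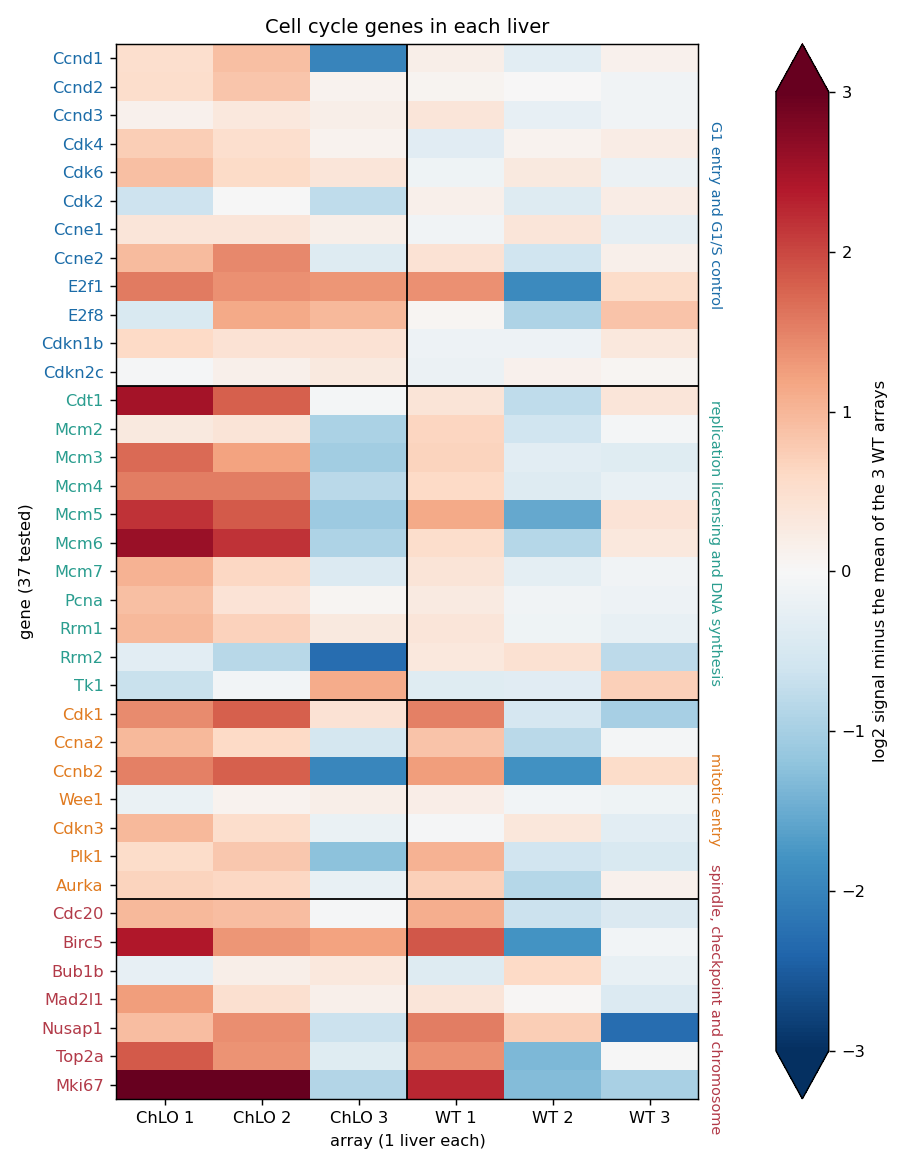
Log2 signal of the 37 tested cell cycle genes, grouped by role, in each of the 6 livers (ChLO left of WT), as the difference from the mean of the 3 WT arrays. Red is higher and blue lower, with colours saturated beyond 3 in either direction. Most genes of replication and mitosis are red in ChLO 1 and ChLO 2, and many of mitosis also in WT 1, while ChLO 3 and WT 2 are mostly pale or blue.

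Leaving out each array in turn gave different counts. Without ChLO 3, limma called 17 of the 37 genes higher at an unadjusted p under 0.05, beside 12.4% of all genes, and 0 lower, beside 8.04%. The 17 include Mki67, which passed the filter only through its ChLO mean. Both remaining ChLO arrays then lay above every WT array for 19 of 37, beside 23.3%. Mcm6 and Cdt1 passed at an adjusted p under 0.05, 2 of 37 beside 2.40%. Without WT 1, 5 genes were higher at an unadjusted p under 0.05, beside 3.85%, and 12 lay above every remaining WT array in all ChLO arrays, beside 14.3%. The count higher at an unadjusted p under 0.05 was 0 without ChLO 1, beside 3.09%, and 1 without ChLO 2, beside 2.77%. It was 1 without WT 2, beside 4.12%, and 1 without WT 3, beside 3.47%.

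Promoters of a few of these genes are shown because G1/S and G2/M genes are known to carry different sequence elements near their starts. Of the 46 genes, 38 had an entry in RefSeq's promoter table for mouse build GRCm38.p6, and the 200 bases before each annotated start were searched on both strands. The E2F site was searched as TTTCCCGC, TTTCGCGC, TTTGGCGC or TTTGCCGC, the CCAAT box as CCAAT, and the cell cycle homology region (CHR), an element of late cell cycle genes, as TTTGAA. The 38 include genes not tested, so shares are given for the 10183 tested and for all 27025 genes with an entry, in that order. An E2F site was found for 5 of 21 G1/S genes and 1 of 17 G2/M genes, beside 3.18% and 1.83%. A CHR was found for 2 of 21 G1/S genes and 6 of 17 G2/M genes, beside 9.75% and 14.4%. A CCAAT box was found for 12 of 21 G1/S genes and 14 of 17 G2/M genes, beside 36.0% and 32.7%. A match of letters is a description and not a shown binding site.

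The sequences are those of Cdk6, Rrm1, Cdk1 and Birc5, the genes with the smallest p in each of the 4 role groups described next, and of Mcm6, chosen after its values were seen for passing without ChLO 3. Cdt1, which passed likewise, held none of the elements in its window and is not shown. The printed windows run 5′ to 3′ along the gene's strand and end at the base before the start, with matched elements in capitals.
Cdk6, chr5:3343693-3343892, plus strand: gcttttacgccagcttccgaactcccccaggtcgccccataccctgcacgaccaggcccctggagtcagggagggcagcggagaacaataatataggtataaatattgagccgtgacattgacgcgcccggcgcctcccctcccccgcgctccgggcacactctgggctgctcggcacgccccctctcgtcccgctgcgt
Rrm1, chr7:102441495-102441694, plus strand: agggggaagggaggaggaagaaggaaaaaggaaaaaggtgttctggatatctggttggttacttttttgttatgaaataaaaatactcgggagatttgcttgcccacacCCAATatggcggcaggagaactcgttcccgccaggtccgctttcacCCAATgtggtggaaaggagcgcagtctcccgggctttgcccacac
Mcm6, chr1:128359706-128359905, minus strand: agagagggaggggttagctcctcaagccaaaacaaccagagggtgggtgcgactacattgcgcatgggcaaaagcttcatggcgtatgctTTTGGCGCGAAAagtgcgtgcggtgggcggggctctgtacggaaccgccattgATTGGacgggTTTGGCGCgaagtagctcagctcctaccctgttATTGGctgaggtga
Cdk1, chr10:69352913-69353112, minus strand: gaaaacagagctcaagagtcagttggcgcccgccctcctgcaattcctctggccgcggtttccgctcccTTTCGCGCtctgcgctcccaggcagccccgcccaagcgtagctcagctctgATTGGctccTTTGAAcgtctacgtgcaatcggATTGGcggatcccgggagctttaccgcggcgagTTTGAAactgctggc
Birc5, chr11:117849037-117849236, plus strand: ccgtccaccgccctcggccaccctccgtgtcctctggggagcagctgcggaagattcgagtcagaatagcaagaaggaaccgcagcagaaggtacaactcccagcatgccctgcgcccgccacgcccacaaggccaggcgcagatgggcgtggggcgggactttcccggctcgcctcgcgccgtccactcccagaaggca
In Mcm6, E2F matches began 110, 106 and 47 bases before the start, the first pair overlapping each other, and CCAAT boxes 57 and 14 bases before it. In Cdk1, an E2F match began 131 bases before the start, CCAAT boxes 80 and 48 and CHR elements 71 and 15 bases before it. Rrm1 held CCAAT boxes 91 and 45 bases before its start, and the windows of Cdk6 and Birc5 held none of these letters. Elements of different names shared 0 bases in these 5 windows.

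Genes of G1 entry and G1/S control were tested for 12 of 12 members. Of these, 10 were higher in ChLO, beside 56.5% of all genes, with a median difference of 0.47. Cdk6, a kinase that works with D-type cyclins, read 10.87, 10.56 and 10.35 in ChLO 1, 2 and 3, against 9.85, 10.27 and 9.80 in WT 1, 2 and 3. All ChLO values lay above all WT values, and the difference was 0.62 (SE 0.21), 1.53-fold, with an unadjusted p of 0.0195 and an adjusted p of 0.482 by limma. Its 3 probe sets were all higher on average in ChLO, but on the dimmest the groups overlapped, with 6.46 in ChLO 3 and 6.81 in WT 1. Cdkn1b encodes p27, an inhibitor of cyclin E and cyclin A kinases and so a brake on the same step. It read 10.55, 10.40 and 10.39 in ChLO, against 9.80, 9.82 and 10.27 in WT. ChLO 3 lay with the other ChLO livers and WT 3 came closest to them, for a difference of 0.48 (SE 0.19), with an unadjusted p of 0.0343 and an adjusted p of 0.532 by limma.

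The D-type cyclins sense growth signals. Ccnd2, cyclin D2, read 9.74, 10.04 and 9.30 in ChLO, against 9.29, 9.22 and 9.11 in WT, a difference of 0.49 (SE 0.22), or 0.68 (SE 0.20) without ChLO 3. Its lowest ChLO value was just above its highest WT value. All 6 probe sets of Ccnd2 past the filter were higher on average in ChLO, but on some the groups overlapped. On another of them ChLO 3 read 7.91, below every WT liver, at 8.08 to 8.44. Ccnd1, cyclin D1, the D-type cyclin best known in regenerating liver, read 11.31, 11.71 and 8.83 in ChLO, against 10.98, 10.50 and 10.93 in WT. ChLO 1 and ChLO 2 were above every WT liver and ChLO 3 was far below all of them, and both other probe sets past the filter showed that order, with 7.84 and 9.16 in ChLO 3. The mean difference for Ccnd1 was -0.18 (SE 0.67), and without ChLO 3 it was 0.71 (SE 0.22). Ccnd3, cyclin D3, ranged over 9.56 to 9.76 in ChLO and 9.19 to 9.80 in WT, and the groups overlapped.

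Cdk4, the other partner of D-type cyclins, read 10.14, 9.89 and 9.50 in ChLO, against 9.05, 9.49 and 9.62 in WT. ChLO 3 lay below WT 3, and the difference was 0.45 (SE 0.24). Cdk2, the partner of cyclin E, was 1 of the 4 genes lower in ChLO and read 9.39, 9.99 and 9.25 in ChLO, against 10.17, 9.64 and 10.23 in WT. The groups overlapped through ChLO 2 and WT 2, and the difference was -0.47 (SE 0.26). The cyclins E differed by 0.30 (SE 0.24) for Ccne1 and by 0.67 (SE 0.50), or 1.20 (SE 0.36) without ChLO 3, for Ccne2. Ccne2 was above every WT array in ChLO 1 and 2 but not in ChLO 3.

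E2f1, an activating E2F factor, read 7.36, 7.18 and 7.13 in ChLO, against 7.16, 3.89 and 6.35 in WT. The ChLO livers were close together and WT 2 was far below the rest, so the difference was 1.42 (SE 0.78), and 0.47 without WT 2. E2f8, a repressive member of the family, read 6.97, 8.56 and 8.39 in ChLO, against 7.47, 6.49 and 8.28 in WT, with overlap and a difference of 0.56 (SE 0.56), or 0.35 (SE 0.61) without ChLO 3. Cdkn2c, an inhibitor of Cdk4 and Cdk6, ranged over 9.09 to 9.41 in ChLO and 8.95 to 9.24 in WT, a difference of 0.14 (SE 0.19), or 0.058 (SE 0.21) without ChLO 3.

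**Figure D2:**
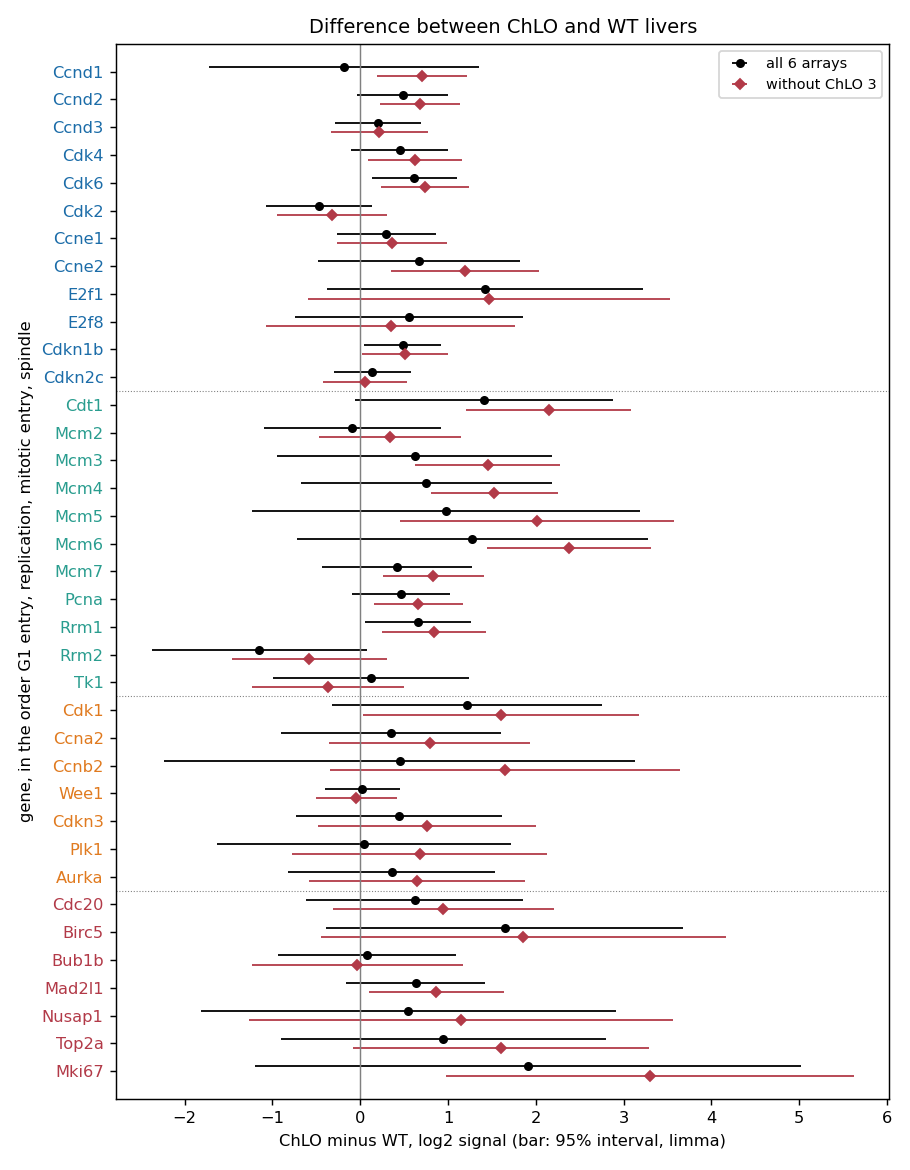
Difference in log2 signal, ChLO minus WT, of each of the 37 tested genes with its 95% interval from limma, with all 6 arrays (black circles) and without ChLO 3 (red diamonds). With all arrays the intervals of Cdk6, Cdkn1b and Rrm1 lie above 0, and without ChLO 3 those of 17 genes do.

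Replication licensing and DNA synthesis, with 11 of 13 members tested, showed the widest gap between ChLO livers of the 4 role groups. Of the 11, 9 were higher in ChLO, beside 56.5% of all genes. As a difference from the mean of the WT arrays, the median of the group was 1.03, 0.70 and -0.80 in ChLO 1, 2 and 3, against 0.40, -0.35 and -0.096 in WT 1, 2 and 3. Mcm2 to Mcm7 encode the ring-shaped helicase that is loaded at replication origins. Mcm6 read 10.72, 10.32 and 7.22 in ChLO, against 8.67, 7.30 and 8.47 in WT. ChLO 1 and ChLO 2 were above every WT liver, while ChLO 3 was below all of them. The difference was 1.28 (SE 0.86) with all arrays and 2.38 (SE 0.40), 5.19-fold, without ChLO 3, where its limma adjusted p was 0.0332.

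The other helicase subunits shared the low value of ChLO 3. Mcm5 read 10.12, 9.79 and 6.84 in ChLO, against 9.07, 6.40 and 8.36 in WT. Mcm3 read 9.59, 9.10 and 6.84 in ChLO, against 8.55, 7.58 and 7.54 in WT. Mcm4 read 9.88, 9.87 and 7.55 in ChLO, against 8.95, 7.97 and 8.12 in WT. In Mcm3 and Mcm4, as in Mcm6, the ChLO livers held both the highest values and the lowest one, while for Mcm5 the lowest was WT 2. Without ChLO 3 the limma differences were 2.01 (SE 0.67) for Mcm5, 1.46 (SE 0.36) for Mcm3 and 1.53 (SE 0.31) for Mcm4, with adjusted p of 0.158, 0.0788 and 0.0505 in that order. With all arrays they were 0.98 (SE 0.95), 0.62 (SE 0.68) and 0.75 (SE 0.62).

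Mcm7 read 10.90, 10.50 and 9.46 in ChLO, against 10.25, 9.58 and 9.77 in WT, a difference of 0.42 (SE 0.37), or 0.83 (SE 0.25) without ChLO 3. Mcm2 differed by -0.091 (SE 0.44), or 0.34 (SE 0.35) without ChLO 3. The groups overlapped for Mcm2, and its other probe set read 9.11, 8.21 and 5.77 in ChLO, against 7.18, 6.03 and 7.73 in WT. Both probe sets of Mcm2 were lowest in ChLO 3. For Mcm2, Mcm3, Mcm7, Ccna2 and Top2a, probe sets past the filter disagreed on the sign of the difference, 5 of the 21 members with several such probe sets.

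Cdt1 brings the helicase to origins and is then destroyed, so that DNA is copied once per cycle. It read 10.29, 9.57 and 7.73 in ChLO, against 8.18, 7.01 and 8.15 in WT. ChLO 3 lay among the WT livers, and the difference was 1.41 (SE 0.64), or 2.15 (SE 0.41) with a limma adjusted p of 0.0425 without ChLO 3. Cdc6, its partner in loading the helicase, was too dim to be tested and read 6.94, 6.77 and 3.06 in ChLO, against 6.38, 2.02 and 4.81 in WT. Pcna, the sliding clamp of DNA polymerase, read 12.74, 12.24 and 11.89 in ChLO, against 12.09, 11.71 and 11.67 in WT. ChLO 3 was below WT 1 and above the other WT livers, and the difference was 0.47 (SE 0.24).

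Ribonucleotide reductase makes deoxynucleotides. Rrm1, its large subunit, read 9.41, 9.12 and 8.71 in ChLO, against 8.78, 8.30 and 8.19 in WT, and ChLO 3 was below WT 1 alone. The difference was 0.66 (SE 0.26), with an unadjusted p of 0.0372 and an adjusted p of 0.535 by limma. Rrm2, the small subunit, read 9.37, 8.86 and 7.41 in ChLO, against 10.02, 10.15 and 8.91 in WT. Its difference was -1.15 (SE 0.53) with a limma unadjusted p of 0.0634 and an adjusted p of 0.577, and -0.58 (SE 0.38) without ChLO 3. Its 3 probe sets past the filter were all lower on average in ChLO, and the groups overlapped because ChLO 1 lay above WT 3.

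Within each array, the Rrm2 signal minus the Rrm1 signal was -0.038, -0.26 and -1.30 in ChLO, against 1.24, 1.86 and 0.71 in WT. Such a value depends on the probes, so only its difference between groups can be read, and that was -1.80. The groups did not overlap, but the pair was chosen after its values were seen, so this is a description with no test. Tk1, thymidine kinase, read 8.31, 8.90 and 10.08 in ChLO, against 8.61, 8.62 and 9.69 in WT, and was highest in ChLO 3. Its difference was 0.12 (SE 0.48), or -0.37 (SE 0.37) without ChLO 3. Tyms, thymidylate synthase, was too dim to be tested, with 4.53 to 5.20 in ChLO and 4.59 to 5.82 in WT.

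**Figure D3:**
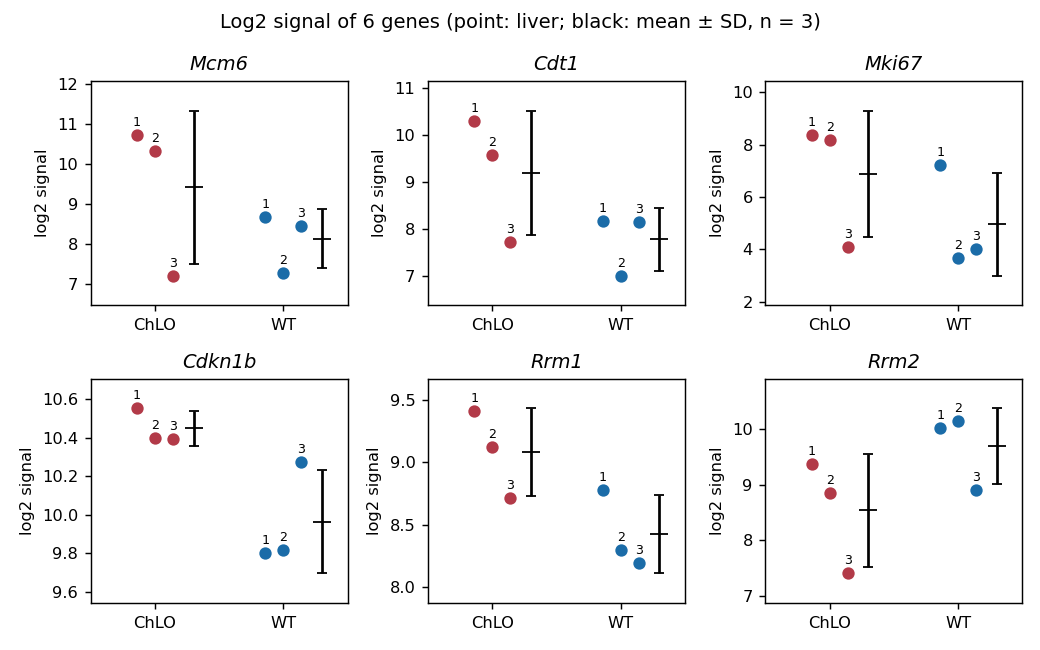
Log2 signal of Mcm6, Cdt1, Mki67, Cdkn1b, Rrm1 and Rrm2 in each liver (points), ChLO left of WT, with the mean and SD of 3 livers in black. ChLO 3 lies far below ChLO 1 and ChLO 2 for Mcm6, Cdt1 and Mki67, and beside them for Cdkn1b.

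Genes of mitotic entry had 7 of 10 members tested, with a median difference of 0.36. Of these, 7 were higher on average in ChLO, beside 56.5% of all genes. Without WT 2 the count higher was 2 of 7, beside 57.3% of all genes, and without ChLO 2 it was 4 of 7, beside 57.5%. Cdk1, the kinase that drives mitosis, read 8.23, 8.59 and 7.24 in ChLO, against 8.32, 6.30 and 5.80 in WT. WT 1 stood with the ChLO livers, and the difference was 1.21 (SE 0.66). Ccnb2, a cyclin B that activates Cdk1, read 7.13, 7.40 and 3.66 in ChLO, against 6.87, 3.81 and 6.16 in WT, a difference of 0.45 (SE 1.16), or 1.65 (SE 0.86) without ChLO 3. Both groups held 1 liver near the lowest value. Ccna2, cyclin A, read 7.91, 7.54 and 6.40 in ChLO, against 7.80, 6.12 and 6.87 in WT, and the groups overlapped. Its difference was 0.35 (SE 0.54), or 0.79 (SE 0.49) without ChLO 3.

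Aurka, a kinase of mitosis, differed by 0.36 (SE 0.51), or 0.65 (SE 0.53) without ChLO 3, and Plk1, another, by 0.041 (SE 0.72), or 0.68 (SE 0.63) without ChLO 3. Plk1 read 6.38, 6.62 and 4.58 in ChLO, against 6.85, 5.25 and 5.35 in WT, so its highest value was in WT 1. Wee1, the kinase that holds Cdk1 inactive, had the smallest SE of the 37 genes and ranged over 10.01 to 10.36 in ChLO and 10.07 to 10.40 in WT. Its difference was 0.026, with a 95% interval of -0.40 to 0.45, and -0.043 (SE 0.20) without ChLO 3. Cdkn3, a phosphatase that acts on cyclin-dependent kinases, differed by 0.44 (SE 0.51), or 0.76 (SE 0.54) without ChLO 3. Foxm1, a transcription factor of the G2/M genes, was too dim on each of its 4 probe sets, the brightest averaging 5.45 in ChLO and 5.17 in WT.

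Genes of the spindle, its checkpoint and chromosomes had 7 of 11 members tested, with a median difference of 0.63. Of these, 7 were higher on average in ChLO, beside 56.5% of all genes. Birc5 and Mki67 had to be higher, because they passed the filter only through their ChLO mean, and the other 5 were higher too. Mki67, which encodes the proliferation marker Ki-67, read 8.38, 8.16 and 4.10 in ChLO, against 7.23, 3.67 and 4.01 in WT. Signal was high in ChLO 1, ChLO 2 and WT 1, and below the filter level of 5.50 in the other livers. It passed the filter only through its ChLO mean, so its difference, 1.91 (SE 1.34), or 3.30 (SE 1.00) without ChLO 3, is a description. Top2a, the topoisomerase that untangles replicated chromosomes, read 8.03, 7.54 and 5.82 in ChLO, against 7.55, 4.82 and 6.16 in WT. Its other probe set past the filter read 6.25, 6.32 and 5.89 in ChLO, against 7.09, 5.91 and 6.30 in WT, with its highest value in WT 1. The difference for Top2a was 0.95 (SE 0.80), or 1.60 (SE 0.73) without ChLO 3.

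Birc5, survivin, a subunit of the complex that holds Aurora B at centromeres, read 7.75, 6.67 and 6.57 in ChLO, against 7.22, 3.57 and 5.28 in WT. WT 1 lay within the ChLO range, and the difference was 1.64 (SE 0.88), a description, since Birc5 too passed the filter only through its ChLO mean. Cdc20, which activates the anaphase-promoting complex, read 7.64, 7.60 and 6.65 in ChLO, against 7.77, 6.02 and 6.23 in WT, a difference of 0.62 (SE 0.53), or 0.95 (SE 0.54) without ChLO 3. Mad2l1, a checkpoint protein that restrains Cdc20, read 9.30, 8.51 and 8.20 in ChLO, against 8.40, 8.07 and 7.63 in WT, a difference of 0.63 (SE 0.34). Nusap1, a spindle protein, differed by 0.55 (SE 1.02), or 1.15 (SE 1.04) without ChLO 3. Bub1b, a checkpoint protein, differed by 0.081 (SE 0.44), or -0.032 (SE 0.52) without ChLO 3. The groups overlapped in both.

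Among the dim members, Gtse1, a gene of the G2 phase, read 6.02, 6.36 and 5.88 in ChLO, against 4.04, 3.76 and 4.71 in WT. All ChLO values lay above all WT values, but its mean was under the filter. With no filter on signal its difference was 1.92 (SE 0.60), with a limma unadjusted p of 0.0118 and an adjusted p of 0.522. The brightest probe sets of the kinases Bub1 and Aurkb averaged 5.10 and 5.62 in ChLO, against 3.12 and 4.19 in WT. Those of Ttk, a checkpoint kinase, and Cenpe, a kinetochore motor, averaged 4.44 and 3.31 in ChLO, against 4.64 and 4.01 in WT. On these probe sets the groups of all 4 genes overlapped. The other, dimmer probe sets of Aurkb and Bub1 had all ChLO values above all WT values, with differences of 2.15 and 2.35. Those of Cenpe and Ttk differed by 1.84 and 0.29, opposite in sign to their brightest, and the groups overlapped.

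The 23 tested G1/S genes had a median difference of 0.48, with 19 higher in ChLO. The 14 tested G2/M genes had 0.50, with 14 higher, and 56.5% of all genes were higher. Birc5 and Mki67, which passed the filter only through their ChLO mean, had to be higher, and the other 12 were higher too. Of the 14, 9 were higher without WT 2, beside 57.3% of all genes, and 11 without ChLO 2, beside 57.5%. The G2/M median minus the G1/S median was 0.017, and it was below 0 under 4 other settings with all arrays. From the mean of the WT arrays, the G1/S median was 0.75, 0.63 and 0.067 in ChLO 1, 2 and 3, against 0.32, -0.31 and 0.048 in WT 1, 2 and 3. The G2/M median was 0.98, 0.86 and -0.20 in ChLO, against 1.07, -0.61 and -0.26 in WT, so its highest value was in WT 1.

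Between ChLO livers the median SD was 0.74 for G1/S genes, 0.68 for G2/M genes and 0.35 for all genes tested. Between WT livers it was 0.34 for G1/S genes, 0.93 for G2/M genes and 0.27 for all genes tested. Without ChLO 3, limma called 14 of 23 G1/S genes and 3 of 14 G2/M genes higher at an unadjusted p under 0.05, beside 12.4% of all genes. The 3 include Mki67, which passed the filter only through its ChLO mean. Without WT 1 limma called 2 of 23 and 3 of 14, beside 3.85%. Whether the phases differ was not tested.

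**Figure D4:**
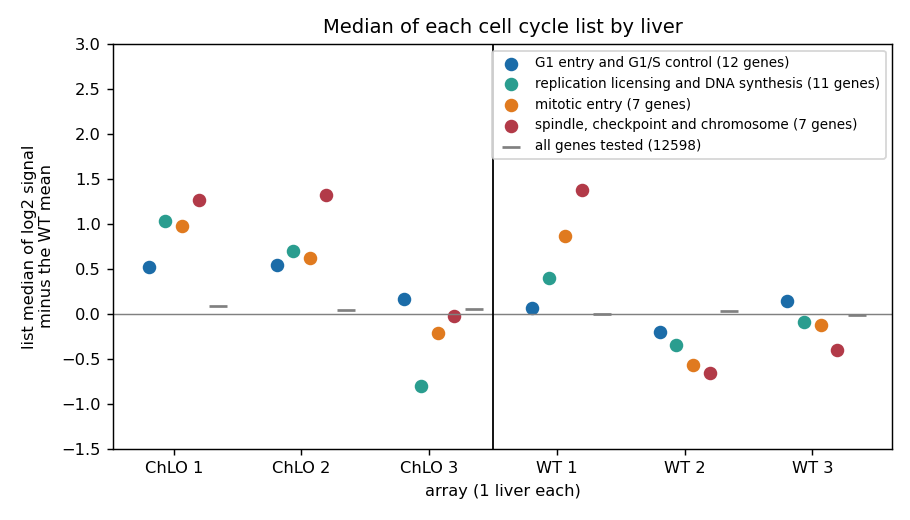
Median log2 signal of each of the 4 role groups of cell cycle genes, as the difference from the mean of the 3 WT arrays, in each liver (ChLO left of WT), with all genes tested in grey. All 4 groups lie above 0 in ChLO 1 and ChLO 2, and the lowest point is that of replication genes in ChLO 3, at -0.80.

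Other genes of the pathway were taken from lists that leave out the 46. Of 45 tested genes of origin licensing, replication and E2F, 34 were higher in ChLO, beside 56.5% of all genes. Their median difference was 0.29. At an unadjusted p under 0.05 limma called 2 of them higher and 2 lower, beside 5.46% and 3.50% of all genes. The count called higher was 12 without ChLO 3, beside 12.4%, and 1 to 5 without any other single array, beside 2.77 to 4.12%. Gins1, a subunit of the replicative helicase complex, read 8.93, 8.62 and 9.01 in ChLO, against 7.97, 8.02 and 7.68 in WT, a difference of 0.96 (SE 0.22) with a limma adjusted p of 0.313. Gmnn, geminin, the protein that inhibits Cdt1, read 10.56, 10.42 and 11.07 in ChLO, against 10.05, 10.15 and 9.98 in WT. For both, all ChLO livers including ChLO 3 were above every WT liver. Orc1, a subunit of the origin recognition complex, differed by -1.79 (SE 0.45), and all ChLO livers were below every WT liver. Its other probe set past the filter was higher in ChLO. Mcm10, a replication initiation factor, differed by -1.17 (SE 0.50), and the groups overlapped.

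Of 38 other G2/M genes tested, 26 were higher in ChLO, beside 56.5% of all genes, with a median difference of 0.35. Kif11 and Tacc3 passed the filter only through their ChLO mean, and Ect2 only through its WT mean. Of the other 35, 24 were higher. At an unadjusted p under 0.05 limma called 2 of the 38 higher and 0 lower, beside 5.46% and 3.50% of all genes. The count called higher was 9 without ChLO 3, beside 12.4%, and 0 to 7 without any other single array, beside 2.77 to 4.12%. Hmgb2, a chromatin protein, read 9.43, 8.48 and 8.58 in ChLO, against 8.48, 7.48 and 6.92 in WT. Stmn1, stathmin, a regulator of microtubules, differed by 0.87 (SE 0.33). Anln, anillin, which acts in cytokinesis, differed by 1.48 (SE 0.65), and Tacc3, a spindle protein that passed the filter only through its ChLO mean, by 1.12 (SE 0.55).

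Of 16 other inhibitors, pocket proteins and related brakes on the cycle, 13 were higher in ChLO, beside 56.5% of all genes. Their median difference was 0.27. At an unadjusted p under 0.05 limma called 2 higher, Ccng1 and Btg2, and 0 lower, beside 5.46% and 3.50% of all genes. The count called higher was 6 without ChLO 3, beside 12.4%, and 1 to 4 without any other single array, beside 2.77 to 4.12%. Ccng1, cyclin G1, a target of p53, read 11.37, 11.41 and 11.09 in ChLO, against 10.30, 10.68 and 10.33 in WT. Btg2, an antiproliferative gene, read 9.47, 11.18 and 9.43 in ChLO, against 7.96, 8.69 and 8.96 in WT. In both, all ChLO livers were above every WT liver. Rbl1, which encodes the pocket protein p107, differed by 1.15 (SE 0.52), and Gadd45a, a stress gene that restrains Cdk1, by 0.91 (SE 0.47). Cdkn1a, which encodes the inhibitor p21, was singled out after its values were seen and read 11.11, 10.73 and 5.35 in ChLO, against 7.63, 5.36 and 6.13 in WT. Its difference was 2.69 (SE 1.43), and without ChLO 3 it was 4.55 (SE 0.58) with a limma adjusted p of 0.0158. ChLO 1 and ChLO 2, the livers with high Mcm6 signal, were also those with high Cdkn1a signal.

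Markers of other cell types moved with some of these values, and in RNA of whole liver more cells of a type and more RNA per cell cannot be told apart. Of 7 neutrophil and monocyte markers on the array 6 were tested, with Itgam below the filter, and the summed signal of all 7 (log2 of the sum of linear signals) was 13.07, 12.53 and 11.27 in ChLO, against 11.44, 11.44 and 11.47 in WT. Lyz2, lysozyme, 1 of them, read 12.60, 12.00 and 10.78 in ChLO, against 11.02, 11.00 and 10.99 in WT. The sum of 10 stellate cell and fibroblast markers was 14.41, 14.78 and 13.41 in ChLO, against 13.73, 13.71 and 13.08 in WT. That of 7 cholangiocyte markers was 12.87, 12.37 and 11.57 in ChLO, against 12.02, 11.84 and 11.94 in WT. That of 10 Kupffer cell and macrophage markers was 14.34, 14.76 and 14.02 in ChLO, against 14.16, 14.06 and 14.16 in WT. In these 4 sums ChLO 1 and ChLO 2 were above every WT array and ChLO 3 was not, which is also the order of Mcm6, but a sum of linear signals is led by its brightest genes. Taken gene by gene, that order held for 5 of 7 neutrophil and monocyte and 8 of 10 stellate cell and fibroblast markers. It also held for 3 of 7 cholangiocyte, 4 of 10 Kupffer cell and macrophage and 4 of 9 endothelial markers. Of all genes tested, 23.3% had ChLO 1 and ChLO 2 above every WT array, a share that includes the 9.04% with ChLO 3 above as well. Among cholangiocyte markers the brightest, Cdh1, which hepatocytes also express, had that order, while Krt7 was highest in WT 2, at 6.75. Among Kupffer cell markers Clec4f and Vsig4 read 9.95 and 10.97 in ChLO 1, below every WT array. Their part in the result was not tested.

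Lymphocyte markers did not show that order. Of 8 T and NK cell markers 5 were below the filter, among them Cd3e and Cd4, and the sum of all 8 was 8.14, 8.95 and 9.13 in ChLO, against 8.74, 8.90 and 8.59 in WT. The sum of 6 B and plasma cell markers, with Cd79a below the filter, was 9.08 to 9.89 in ChLO and 8.64 to 9.89 in WT. That of 9 endothelial markers was 13.03 to 13.43 in ChLO and 12.99 to 13.23 in WT, and that of 5 erythroid markers, 3 of them below the filter, 9.22 to 11.08 in ChLO and 10.30 to 11.39 in WT. The sum of 12 hepatocyte markers was 18.55, 18.56 and 18.87 in ChLO, against 18.90, 18.89 and 19.08 in WT. All ChLO livers were thus below all WT livers, though ChLO 3 lay close to WT 2. Gene by gene, Apoa1, Apob, Ttr, Serpina1c and Hnf4a showed this, and the groups overlapped for the other hepatocyte markers. At an unadjusted p under 0.05 limma called 0 of the 12 higher and 0 lower, beside 5.46% and 3.50% of all genes. The 3′ minus 5′ signal of Actb, a sign of RNA quality, was 0.84, 1.03 and 1.46 in ChLO, against 1.13, 1.38 and 1.28 in WT, and that of Gapdh was -0.25, -0.20 and -0.14 in ChLO, against -0.31, -0.14 and -0.13 in WT. The part of these values in the result was not tested.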

How the data were processed

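Biotinylated cRNA from each liver was hybridized to its own Affymetrix array, per the labels' protocols. The authors deposited log2 signals for 45101 probe sets, and the submitters' processing notes name MAS5. In linear units each array has a mean of 500 after 2% of values are trimmed from each end, which hides any change common to most transcripts. By the platform's annotation 34945 probe sets have 1 symbol, 932 several and 9160 none, and 64 are controls. Controls and probe sets below the 40th percentile of mean signal (5.50) were left out, which kept 27022. For a gene with several, the brightest on average was used.

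ChLO and WT were compared with limma 3.58.1 in R 4.3.3 (lmFit, eBayes with trend, no block), with Benjamini-Hochberg adjustment over 12598 genes and a threshold of 0.05. The p-values reflect variation among arrays of 1 group, and the number of arrays limits precision. With 1 array per mouse, variation among mice and noise of the arrays cannot be told apart. The members, lists, tests and the rule for named genes (Mlxipl, all members, the 4 genes of smallest p in each pathway list, marker genes) were chosen with earlier results of these data known. On simulated data with 200 of 12598 genes changed, ChLO against WT with 3 arrays each, this fit called 20.2% of changes of 1 log2 unit and 74.0% of changes of 2. The changed genes were drawn from all genes tested, with a median SE of 0.28. The median SE was 0.44 for G1/S and 0.60 for G2/M members, so these rates do not carry over to the members. Same-numbered ChLO and WT arrays had deviations that correlated at 0.30, -0.17 and 0.063, so they were not treated as pairs. Alternatives covered normalization, filter, probe set choice, fit, pseudocount and each array left out.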

Additional observations from a re-analysis of the deposited data

How the results depend on the processing

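The G2/M median minus the G1/S median, 0.017 in the report, turned negative with the mean of all probe sets (-0.060), without probe sets of several transcripts (-0.15), with 32 added to the linear signal (-0.13) and against licensing and synthesis genes alone (-0.12), and was -0.083 to 0.39 when an array was left out. The median differences were 0.31 to 0.68 for G1/S and 0.28 to 0.95 for G2/M genes when an array was left out. Genes past an adjusted p of 0.05 over the whole array, 0 in the report, numbered 568 with array weights, 3 with no filter, 7 with 32 added, 1 with the replicate number as a block and 0 to 302 when an array was left out. Members higher at an unadjusted p under 0.05, 3 in the report beside 5.46% of all genes, numbered 1 with equal array medians (all genes 5.02%), 8 with spike-in scaling (14.6%), 5 with no filter (4.48%), 15 with array weights (14.9%), 7 with the replicate block (6.29%), 0 at a threshold of 0.01 (0.992%) and 0 to 17 when an array was left out (2.77 to 12.4%). Members lower numbered 1 with the replicate block (all genes 4.28%), quantile normalization (3.89%), the mean of all probe sets (3.71%) and without probe sets of several transcripts (3.44%). They numbered 0 to 1 when an array was left out (2.44 to 8.04%). Members above every WT array, 3 in the report, numbered 6 with spike-in scaling (all genes 20.9%), 5 with the mean of all probe sets (8.21%) and 3 to 19 when an array was left out (12.7 to 23.3%). Members below every WT array numbered 0 to 1 when an array was left out (8.64 to 16%). Of 651 recomputed differences of members, 619 kept their sign. With all arrays it turned for Ccnd1 (0.065 with spike-in scaling, 0.67 with array weights), Mcm2 (0.16 and 0.29 under the same settings, 0.31 with the mean of all probe sets, 0.71 without those of several transcripts), Tk1 (-0.12 with array weights), Top2a (-0.28 without probe sets of several transcripts) and Wee1 (-0.024 with quantile normalization). Leaving out an array gave ranges across 0 for Aurka (-0.062 to 0.72), Bub1b (-0.11 to 0.38), Ccna2 (-0.054 to 0.79), Ccnb2 (-0.45 to 1.65), Ccnd1 (-0.73 to 0.71), Mcm2 (-0.39 to 0.34), Nusap1 (-0.59 to 1.32), Plk1 (-0.34 to 0.68), Tk1 (-0.37 to 0.52) and Wee1 (-0.043 to 0.13). The cause was not tested. With array weights Ccnd2 passed (limma adjusted p of 0.0472). Spike-in scaling gave a median difference of 0.31 for all genes, against 0.060 in the report. The 8 dim members entered no test with the filter.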
